A study of Arabidopsis thaliana with 2 samples.

Results

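The data are the polysome ratios of a single array, made from cells of Arabidopsis thaliana line T87 harvested on day 8 after inoculation. T87 is a green cell line grown as a shaken suspension in modified LS medium under long days. The array is 1 of 2 in the study, which compared translational state at different ages of the culture, and the values were taken by name from the column of the day 8 array alone. RNA from the polysomal fractions, 1 to 3 of 8 fractions of a sucrose gradient numbered from the bottom, was set against RNA of all fractions on an array with 2 colours. The design gives 1 biological replicate, so the values have no replicate check, no test between cultures is possible, and all differences below describe this array. Of 25416 genes with a named probe, 20899 (82.2%) had signal and are described here. The other 4517 lay at the value that probes without signal share and were left aside.

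A polysome is an mRNA carrying several ribosomes at once, and the heavy fractions at the bottom of a sucrose gradient hold such mRNAs. Messages that are being read by many ribosomes sediment there, while idle messages, messages with few ribosomes and RNA that is not translated stay higher in the gradient. A short reading frame has room for fewer ribosomes than a long one, so the sedimentation of an mRNA depends on its length as well as on how often translation starts. Whether the ratios below go with length was not tested.

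The polysome ratio of a gene is given here as a percent of the signal in the denominator pool. Probes without signal read near 25.1%, and spike-in probes had medians from 11.8% to 575%. The zero of the scale is therefore not settled, and a percent is a position on this scale and not a share of the message. The ratio compares the signals of the same probe in both pools and is not a level of expression. Differences are given on the log2 scale relative to the median gene of the array, which makes them independent of the zero of the scale. The numerator is likely the polysomal pool, from the sample's title and the design text. The labels of the channels do not settle this, since for Cy5 the molecule given is total RNA and the description polysomal RNA, while the polysomal fractions are the source given for Cy3. On this scale 44 genes (0.211%) exceeded 100%, a count that depends on the zero and does not tell which pool is the numerator. RNAs of the spliceosome and nucleolus, which carry no reading frame, stood lowest. Where the labels speak of spike-ins, the second pool is named nonpolysome. If that were the denominator, the percents would be relative to the RNA outside polysomes and the order of genes would hold. If instead the numerator were the other pool, the order would be turned, and the groups called high here would be the low ones.

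For the median gene the polysome ratio was 24.1%. The quartiles were 16.7% and 33.5%, an interquartile range of 1.00 on the log2 scale, and the central part from the 5% to the 95% quantile reached from 8.71% to 48.9%. The tails were long, with a 1% quantile of 4.80%, a 99% quantile of 68.6%, and extremes of 0.394% and 252%. At least 2-fold below the median gene lay 2497 genes (11.9% of all genes with signal), and at least 2-fold above it lay 1115 (5.34%). More genes thus lay far below the median gene than far above it, and at 4-fold the counts were 392 and 48. Probes without signal shared a value near 25.1%, close to the median gene, so that genes were lost from the middle of the distribution rather than from an end. Of the genes kept, 1819 lay within 0.1 of that value on the log2 scale.

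**Figure D1:**
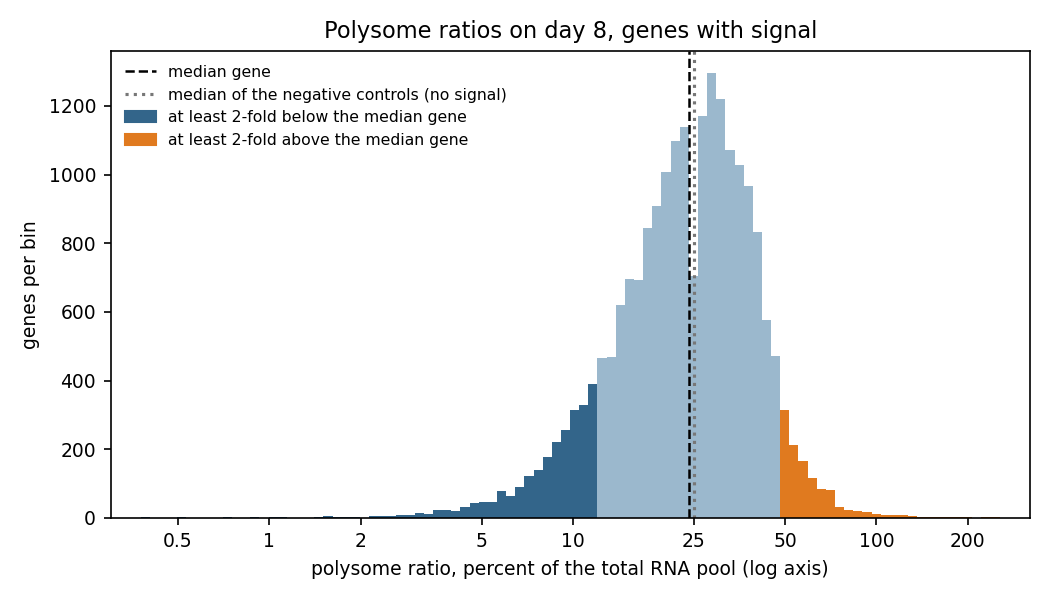
Histogram of the polysome ratio of the 20899 genes with signal on day 8, on a log axis in percent of the total RNA pool, with bins of equal width on the log scale. The dashed line marks the median gene (24.1%) and the dotted line the negative controls (25.1%), where a notch shows the genes left aside; the 2497 genes at least 2-fold below the median are dark blue and the 1115 at least 2-fold above it orange.

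The error that can be seen within the array is the disagreement between probes. Repeated spots of 23 probes had a median SD of 0.03 on the log2 scale and a highest SD of 0.12. For 600 genes with at least 2 different probes with signal, the median SD between probes was 0.33, and the probes of 140 genes (23.3%) lay at least 2-fold apart. Most genes were measured by 1 probe, so a gene's distance from the median carries this error, and genes with near-identical copies may share signal. Both figures leave out differences between cultures, gradients and labellings. Of the markers of green cells, 9 of 9 on the array had signal, as did 6 of 7 for xylem, 4 of 5 for pollen, 3 of 5 for root hairs, 3 of 5 for guard cells, 2 of 4 for trichomes and 2 of 6 for seeds. Among all genes 82.2% had signal, so these small counts do not show which cell types were present. Green markers ranged from 8.39% to 206%. The ratios are of a bulk lysate, where fewer cells with a loaded message and less loading in each cell cannot be told apart.

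RNAs without a protein product formed the low end. The spliceosomal RNAs U12, U1.5 and U4.2, parts of the particles that remove introns, had ratios of 0.394%, 0.528% and 0.748%. U1.5 was measured by 3 probes with an SD of 0.05 on the log2 scale between them. The nucleolar guide RNAs SNOR111, SNOR30 and SNOR105 followed at 1.04%, 1.07% and 1.88%. By the gene types of the RefSeq table, 10 small nucleolar RNAs had a median of 2.23%, 34 other non-coding RNAs 6.70%, 5 microRNA genes 6.95%, 32 long non-coding RNAs 13.7%, and 20520 protein-coding genes 24.2%. In the list of 68 non-coding RNAs drawn from the descriptions, of 81 on the array, 0 lay at least 2-fold above the median gene. At least 2-fold below it lay 40 (58.8% of the list, against 11.9% of all genes). Its middle member, AT5G59732, stood at 9.85%, but its 2 probes disagreed with an SD of 1.08. TAS2, a precursor of trans-acting small RNAs, had 8.84%, and the precursor MIR408 had 6.95%, each from 2 probes. The list reached up to AT5G41612 at 47.1%, so the loading of annotated non-coding transcripts overlapped that of mRNAs. IPS1, a transcript that sequesters a phosphate-starvation microRNA in Arabidopsis, had 2.18%, and AT7SL-1, an RNA of the signal recognition particle that was picked after its value was seen, had 2.21%. Amplification started at an oligo(dT) primer, and the values of RNAs without a long poly(A) tail may not stand for their mature forms.

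The remaining named genes at the low end code for proteins of several kinds. DI21, a protein induced by drought, had 1.47%, and AGP23, an arabinogalactan peptide of the cell surface, had 1.51%. TPPJ, a trehalose-6-phosphate phosphatase, had 1.82%. PMT1, a transporter of polyols and monosaccharides, had 1.88%, and MEE38, named after a maternal effect on the embryo, had 1.93%. Each of these values rests on 1 probe. Relative to the median gene they lay between -4.03 and -3.64 on the log2 scale. They were chosen as extremes, and with 1 probe each their spread between probes is not known. Transcripts encoded in mitochondrial DNA, whose translation takes place inside the organelle, also lay low. All 4 with signal were below the median gene, from ATMG01080, subunit 9 of the mitochondrial ATP synthase, at 1.50% to ATMG00580, subunit 4 of NADH dehydrogenase, at 15.7%.

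At the high end, SVL2, a member of a family of glycerophosphodiesterase-like proteins of the cell wall, had the top value of a gene with a symbol at 228%. LHCB2.1 and LHCB2.2, copies of a light-harvesting protein of photosystem II, had 206% and 190%. XW6 and RPL5B, which code for ribosomal proteins, had 175% and 135%. emb1507, a helicase of the U5 spliceosomal particle, had 153%, and FLA8, a fasciclin-like arabinogalactan protein, had 140%. ARF2, an auxin response factor, had a mean of 133% over 2 probes that differed widely (SD 1.30 on the log2 scale). DSEL, a lipase, had 129%, GLR2.7, a channel of the glutamate receptor family, 124%, RPP1, an immune receptor, 122%, and RIC7, an effector of ROP GTPases, 117%. Apart from ARF2 these values come from 1 probe each. A share above 100% of the whole cannot occur for a part of it, so these ratios are better read as positions at the top of the order than as shares.

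Genes were grouped by the family phrase of their description, which gave 357 families of at least 8 genes with signal and 8726 genes in all. Families differed modestly. The medians ran from -0.99 on the log2 scale relative to the median gene, for fatty acid desaturases, to 0.97, for proteins described as chromatin remodeling. The SD between families was 0.25 and the SD between members of a family 0.69, so that family accounted for 11.6% of the variance between genes. A median at least 0.5 below the median gene was found for 27 families and one at least 0.5 above it for 47. Of 51 broader lists, which overlap in part, 11 and 6 passed the same limits.

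**Figure D2:**
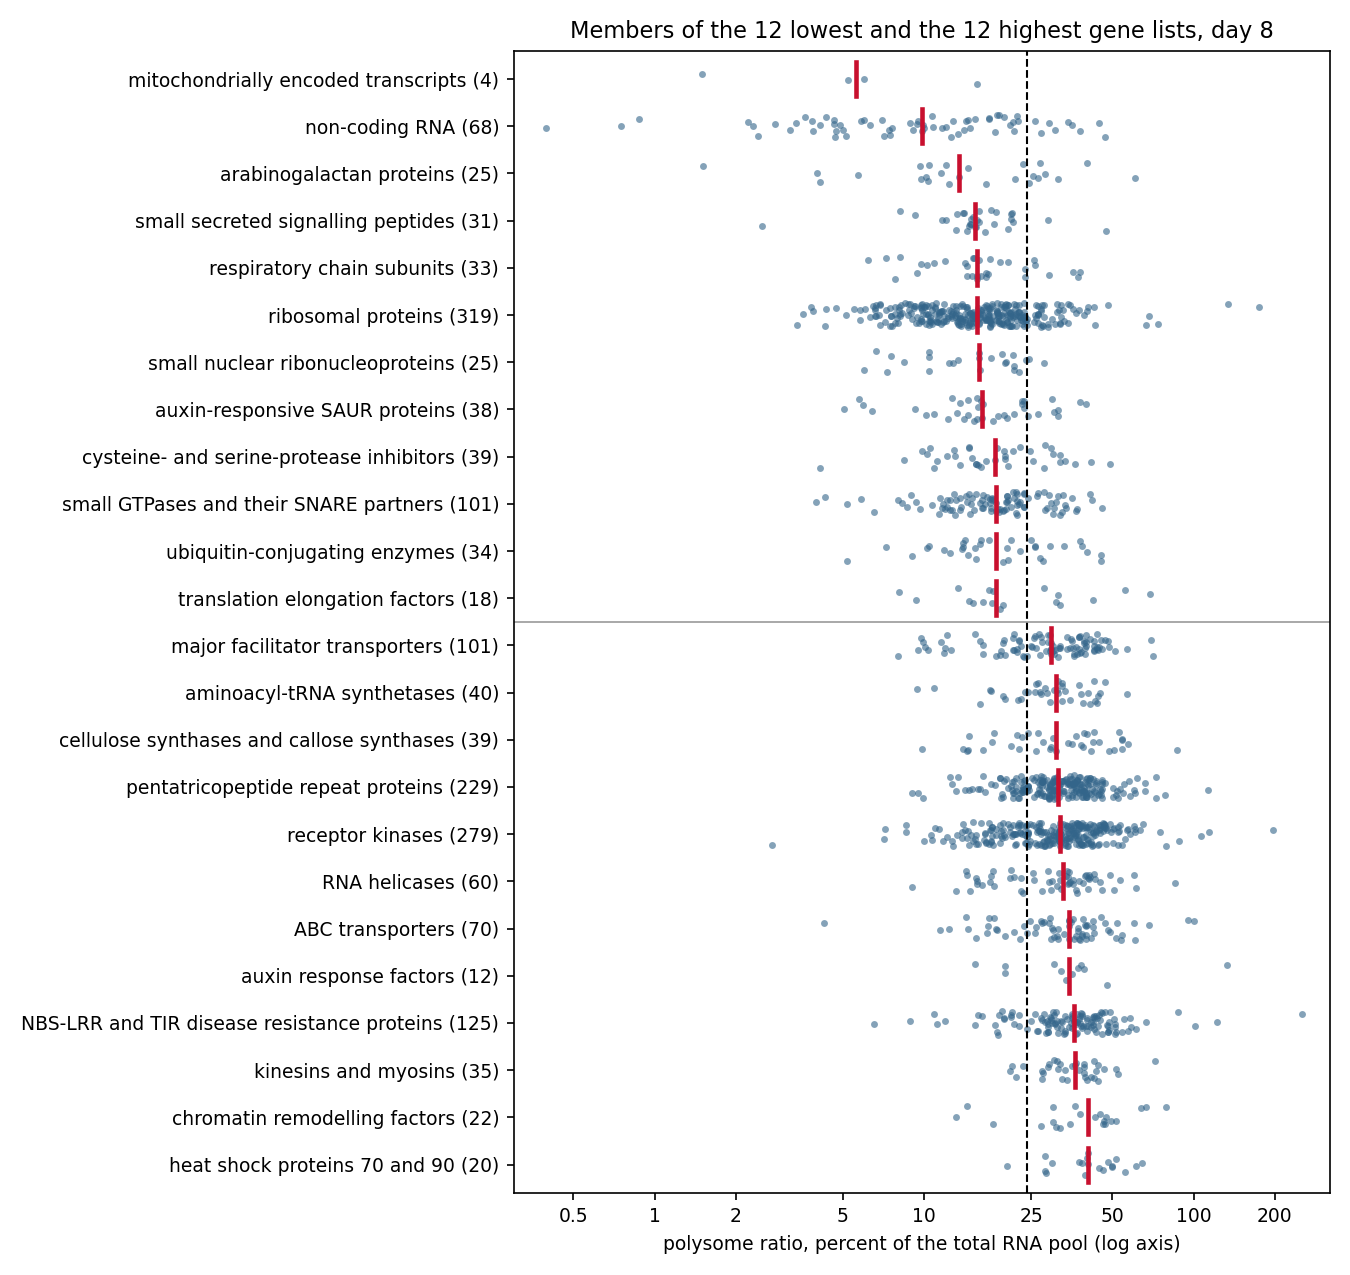
Polysome ratio of each member (dots) of the 12 lowest and the 12 highest gene lists on day 8, on a log axis in percent of the total RNA pool, with the list's median in red, the median gene of the array (24.1%) dashed and the number of genes with signal in brackets. List medians run from 5.60% for mitochondrially encoded transcripts to 40.5% for both chromatin remodelling factors and heat shock proteins 70 and 90, and members of most lists fall on both sides of the dashed line.

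Ribosomal proteins were the largest group on the low side. Of 330 ribosomal protein genes on the array 319 had signal, and 270 of them lay below the median gene. Their median was 15.7%, with quartiles of 10.8% and 21.0%. At least 2-fold below the median gene lay 100 of them (31.3%, against 11.9% of all genes), and at least 2-fold above it 5 (1.57%, against 5.34%). Genes described as cytosolic had the same median as the whole list, 15.7% over 89 genes, and 18 genes described as organellar had 18.1%. Most of the list, 214 genes, was described as neither and had a median of 15.6%. The middle member was AT3G44590, at 15.7%. The top of the list was set by single probes of XW6 (175%) and RPL5B (135%).

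Genes whose descriptions share the name of a ribosomal protein agreed closely under some names and not under most. A name can cover both cytosolic and organellar proteins, as L11 does with the organellar MRPL11. The spread within a name is therefore not only a spread between copies of one protein. The 3 genes for L41, a protein of the large subunit, had the lowest median of any protein name, with AT2G40205 at 3.37%, AT3G56020 at 3.56% and AT1G56045 at 3.79%. L39 had a median of 6.59% over 3 genes, L38e 7.31% over 2 and S14p 7.46% over 3. Towards the upper end stood S3 with a median of 23.3%, L4 with 23.7% and S5 with 32.0%. Of 67 protein names shared by at least 2 genes, 38 had every gene below the median gene, beside 270 of 319 single genes of the list that lay there. The median SD between genes of a name was 0.61, against an SD of 0.78 over the whole list, and under 45 names the highest gene lay at least 2-fold above the lowest. The copies of L5 lay far apart, with ATL5 at 19.7% and RPL5B at 135%. The 4 genes named S15A ranged from RPS15A at 3.88% to 32.2%, and the 5 genes named S5 from 22.9% to 175%. Several ribosomal genes had more than 1 probe. Those of RPSAb (27.4%, SD 0.13) and AT5G45775 (20.3%, SD 0.16) lay close together, those of AT2G07715 (6.03%, SD 0.44), AT2G16930 (10.4%, SD 0.48) and AT2G27710 (27.6%, SD 0.53) less so, and those of AT2G40590 (34.8%, SD 0.85) apart.

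**Figure D3:**
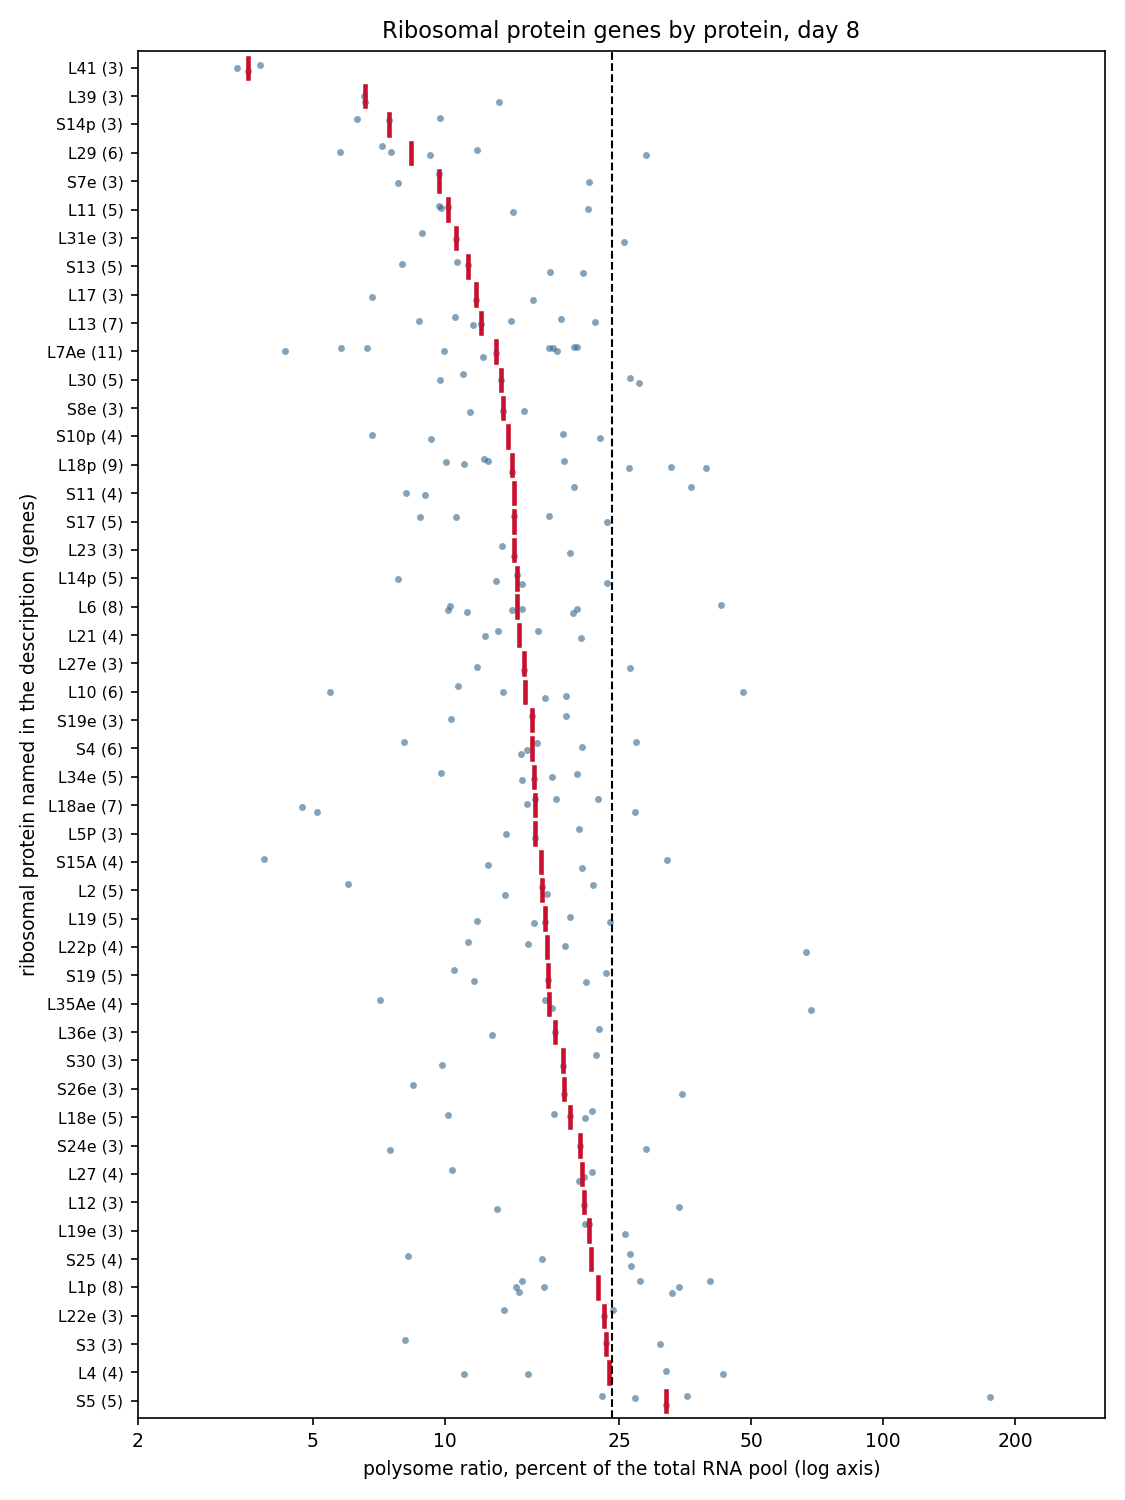
Polysome ratio of ribosomal protein genes on day 8 (dots), by the protein named in their description, for names with at least 3 genes, on a log axis in percent of the total RNA pool. Red bars are the medians of each name and the dashed line the median gene of the array (24.1%); names run from L41 (median 3.56%) at the top to S5 (32.0%), and within most names the genes spread over a wide range.

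The ribosomal families described next share genes with the list of ribosomal proteins above, so they are not separate evidence. Not all were wholly low. In the L18p family 6 of 9 genes lay below the median gene, and among zinc-binding ribosomal proteins 7 of 9. All 11 genes of the L7Ae family, RNA-binding proteins of ribosomes and small ribonucleoproteins, lay below the median gene, from AT1G15930 at 4.34% through AT3G18740 at 13.1% to AT1G77940 at 20.04%. So did all 10 genes of the acidic proteins of the ribosomal stalk, from AT5G47700 at 6.49% through AT3G28500 at 13.9% to AT5G24510 at 22.5%. The Sm and LSm proteins, which form the rings of spliceosomal and mRNA decay particles, had a median of 16.0%. Of 25 genes 23 lay below the median gene and 8 (32.0%, against 11.9% of all genes) at least 2-fold below. SNRNP-G was lowest at 5.98%, RUXF in the middle at 16.0% and AT5G44500 highest at 27.9%.

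Initiation factors lay higher than the ribosomal proteins. The 54 initiation factors with signal, of 56, had a median of 23.7%, with 27 below and 27 above the median gene. At least 2-fold below lay 6 (11.1%, against 11.9% of all genes) and at least 2-fold above 5 (9.26%, against 5.34%). The order within the list ran over more than a factor of 10. Lowest was AT4G27130, a SUI1 or eIF1 factor that takes part in start codon choice, at 5.06%, and highest was EIF3A, the scaffold subunit of eIF3, at 67.0%. LSP1, a cap-binding protein of the eIF4E type, stood near the middle at 23.2%. The probes of AT1G76820, an initiation factor gene with 2 probes, averaged 34.1%. Among further members chosen after their values were seen, EIF3C had 47.5%, TIF3B1 34.6% and EIF3B-2 35.2%, while the eIF3 subunits EIF3K and TIF3H1 had 10.3% and 12.5%. The scaffold EIF4G had 50.5% and the helicases EIF4A-III, EIF4A-2 and EIF4A1 had 53.6%, 43.2% and 26.2%.

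Elongation factors stood near the organellar ribosomal proteins (18.1%), with a median of 18.5% over 18 of 20 genes, 11 below and 7 above the median gene. AT3G08740, a protein of the EF-P family, was lowest at 8.07%, AT1G07930, a copy of the factor that brings aminoacyl-tRNA to the ribosome, stood in the middle at 18%, and MEE5 was highest at 68.9%. MEE5 is listed with the elongation factors by its sequence, but it is known as a GTPase of the U5 spliceosomal particle. Aminoacyl-tRNA synthetases, which charge tRNAs, lay higher. Their median was 30.7% over 40 of 44 genes, and 30 lay above the median gene, from AT5G10880 at 9.38% through AT5G38830 at 30.4% to AT3G02760 at 56.6%, the last from 2 probes.

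Respiratory chain subunits encoded in the nucleus resembled the ribosomal proteins. Of 33 with signal, 27 lay below the median gene, and their median was 15.7%. At least 2-fold below lay 9 (27.3%, against 11.9% of all genes) and at least 2-fold above 0 (against 5.34%). AT2G02510, a subunit of NADH dehydrogenase, was lowest at 6.18%. COX6B, a subunit of cytochrome c oxidase, stood in the middle at 15.7%, and ATP3, the gamma subunit of the mitochondrial ATP synthase, was highest at 37.8%. AT4G26210, measured by 2 probes, had 14.4%. The 8 subunits described as translocases of the inner mitochondrial membrane were spread widely around a median of 14.9%, with 5 below the median gene, from TIM17-2 at 7.64% through TIM23-2 at 14.3% to TIM44-1 at 64.0%. Fatty acid desaturases, which place double bonds in membrane lipids, were the lowest family by median (12.2% over 10 of 14 genes). Of these 10, 4 (against 11.9% of all genes) lay at least 2-fold below the median gene. FAD3, the enzyme of the endoplasmic reticulum that makes linolenic acid, had 4.94%, FAD5, a plastid enzyme, 12.1%, and FADA, also of the plastid, 30.9%.

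Proteins of photosynthesis were spread widely. The list of 58 genes with signal had a median of 19.6%, with 44 below the median gene. At least 2-fold below lay 15 (25.9%, against 11.9% of all genes) and at least 2-fold above 3 (5.17%, against 5.34%). LIL3:2, a protein related to the antenna, was lowest at 6.95%, LHB1B2 was in the middle at 19.5% and LHCB2.1 highest at 206%. AT1G51400, with 2 probes, had 19.4%. The 19 antenna proteins alone had a median of 14.7% and ranged from LHB1B1 at 7.05% through LHCB4.2 to the outlying LHCB2.2 and LHCB2.1. The third copy, LHCB2.3, had 29.0%, and the near-identical genes CAB1, CAB2 and CAB3 had 67.6%, 11.1% and 14.6%; these were picked after their values were seen. Photosystem I subunits had a median of 22.4% over 13 genes and photosystem II subunits 20.7% over 10. Of the Rubisco small subunits, the nuclear-encoded part of the carbon-fixing enzyme, RBCS1A had 12% and the other 3 genes had 27.7% to 28.8%.

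CLE and RALF peptides and arabinogalactan proteins were mostly low. Of 31 CLE and RALF peptide genes with signal, 29 lay below the median gene, and the median was 15.5%. RALFL32 was lowest at 2.49%, CLE16 in the middle at 15.5% and CLE21 highest at 47.3%. Both peptide classes signal through receptor kinases. Only 31 of 53 genes of this list had signal, so the others lie outside these counts, and the median moved from -0.64 to -0.25 relative to the median gene when they were kept. The share at least 2-fold below, 4 of 31 (12.9%), was close to that of all genes (11.9%). The arabinogalactan proteins other than the fasciclin-like ones, heavily glycosylated proteins of the cell surface, did have such a tail. Of 29 on the array 25 had signal, and their median was 13.5%. Of these 25, 10 (against 11.9% of all genes) lay at least 2-fold below the median gene. AGP23 stood lowest at 1.51%, AGP7 in the middle at 13.5% and AGP18, a protein with a lysine-rich region, highest at 60.8%. AGP16 and AGP17, with several probes each, had 9.62% and 40.4%. The fasciclin-like relatives had a median of 29.6% over 17 of 19 genes, from FLA3 at 10.7% through FLA16 at 29.6% to FLA8 at 140%.

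Further low families had varied functions. The PPPDE thiol peptidases had a median of 13.3% over 8 of 9 genes, the SET domain proteins 15.2% over 8, the growth-regulating factors 15.7% over 8 and the diacylglycerol kinases 15.8% over 8. The CAP proteins, secreted proteins related to the pathogenesis marker PR1, lay below the median gene in 13 of 13 cases, from AT1G01310 at 2.82% through AT4G33730 at 15.5% to AT2G19970 at 23.7%. The calcineurin B-like calcium sensors did so in 8 of 8, from CBL6 at 5.15% through CBL3 at 15.7% to CBL1 at 23.9%. Members of the peroxisomal 22 kDa membrane protein family did so in 10 of 10, from AT3G24570 at 8.02% through AT4G03410 at 14.7% to AT2G42770 at 21.3%. Reticulons, which shape the endoplasmic reticulum, had a median of 16.6%, with AT1G78895 at 6.10%, AT4G01230 at 16.6% and AT1G68230 at 25.8%. Pollen Ole e 1 allergen and extensin proteins of the cell wall had a median of 14.2% over 21 of 27 genes, from AT5G15780 at 5.15% through AT3G16660 at 14.2% to AT5G10130 at 59.2%. SAUR proteins, small products of early auxin response genes, had a median of 16.3%, with 30 of 38 below the median gene, from AT4G38840 at 5.05% through SAUR36 at 16.3% to AT5G50760 at 39.7%. With 38 of 72 SAUR genes having signal, this median covers only the detected genes, and relative to the median gene it moved from -0.56 to -0.02 on the log2 scale when genes without signal were kept.

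The machinery of vesicle traffic was low at its switches and fusion proteins. Small GTPases and SNAREs had a median of 18.4% over 101 of 112 genes, with 78 below the median gene. At least 2-fold below lay 17 (16.8%, against 11.9% of all genes) and at least 2-fold above 0 (against 5.34%). RABA5E, a GTPase of the trans-Golgi and endosomal class, was lowest at 3.95%, VAMP714 in the middle at 18.4% and SYP121, a syntaxin of the plasma membrane, highest at 45.6%. SGP1, with 2 probes, had 15.5%. By class, RABA GTPases had a median of 18.4% over 18 genes, syntaxins 16.4% over 20, VAMP proteins 18.4% over 11 and the other RAB GTPases 21.1% over 22. Some other families of the endomembrane system, picked after their values were seen, lay above the median gene. The EXO70 subunits of the exocyst had a median of 36.7% over 18 genes, from EXO70H3 at 14.1% through EXO70C2 at 36.2% to EXO70H7 at 48.5%. Proteins of the SEC23 family, part of the coat of vesicles leaving the endoplasmic reticulum, had a median of 30.3% and one of the tightest spreads (SD 0.24 over 9 genes), with AT4G14160 at 22.1%, AT4G32640 at 30.3% and AT4G01810 at 36%. The endomembrane 70 proteins lay above the median gene in 10 of 10 cases, from AT1G14670 at 27.2% through TMN6 at 32.8% to AT5G25100 at 71.4%.

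Protein turnover was split. The list matched to ubiquitin-conjugating enzymes by description had a median of 18.5% over 34 genes, with 22 below the median gene. It ran from UBC20 at 5.18% through ELC at 17.5% to AT2G38830 at 45.4%. A match by description can include relatives, and whether ELC and AT2G38830 are active enzymes of this kind was not tested. RING and U-box ligases, which choose the substrates, had 25.3% over 296 of 365 genes. F-box proteins had 22.8% over 337 of 539 genes, and both medians lay near the median gene. Their lowest members were AT2G15580 at 4.38% and AT5G56390 at 2.99%, and their highest AT2G47560 at 90.6% and AT5G41630 at 77.4%. The proteasome list, matched by description to the machine that degrades the tagged proteins, had a median of 25.9% over 37 genes. At least 2-fold below the median gene lay 0 (against 11.9% of all genes) and at least 2-fold above 2 (5.41%, against 5.34%). PBB2 was lowest at 12.7%, EER5 in the middle at 25.9% and RPT1A highest at 54.5%. EER5 was matched by its description only and is in neither group of subunits below. Subunits of the proteasome core had a median of 22.6% over 17 genes, and those of its regulatory cap 29.6% over 13.

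Chaperones of the large ATP-driven classes shared the top of the lists with chromatin remodelling factors. Of 20 genes for heat shock proteins 70 and 90, 19 lay above the median gene and 6 of the 20 (against 5.34% of all genes) at least 2-fold above, with a median of 40.5%. The exception was AT1G56410, at 20.2%. SHD, the HSP90 of the endoplasmic reticulum, stood in the middle at 40.5%, and cpHsc70-2, an HSP70 of the chloroplast, was highest at 64.3%. Hsp70-2, with 2 probes, had 49.7%. The BiP chaperones of the endoplasmic reticulum, BIP1, BIP2 and BIP3, had 44.7%, 40.2% and 51.6%. Small heat shock proteins did not share this place. Their 33 genes had a median of 23%, from AT1G76440 at 12.7% through AT5G51440 at 23% to AT4G16560 at 41.1%. Past 2-fold lay 0 of them on either side, against 11.9% of all genes below and 5.34% above. DnaJ co-chaperones, which activate HSP70, had 25.4% over 108 genes, from AT3G62190 at 3.88% through AT2G17880 at 25.3% to GRV2 at 53.3%.

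**Figure D4:**
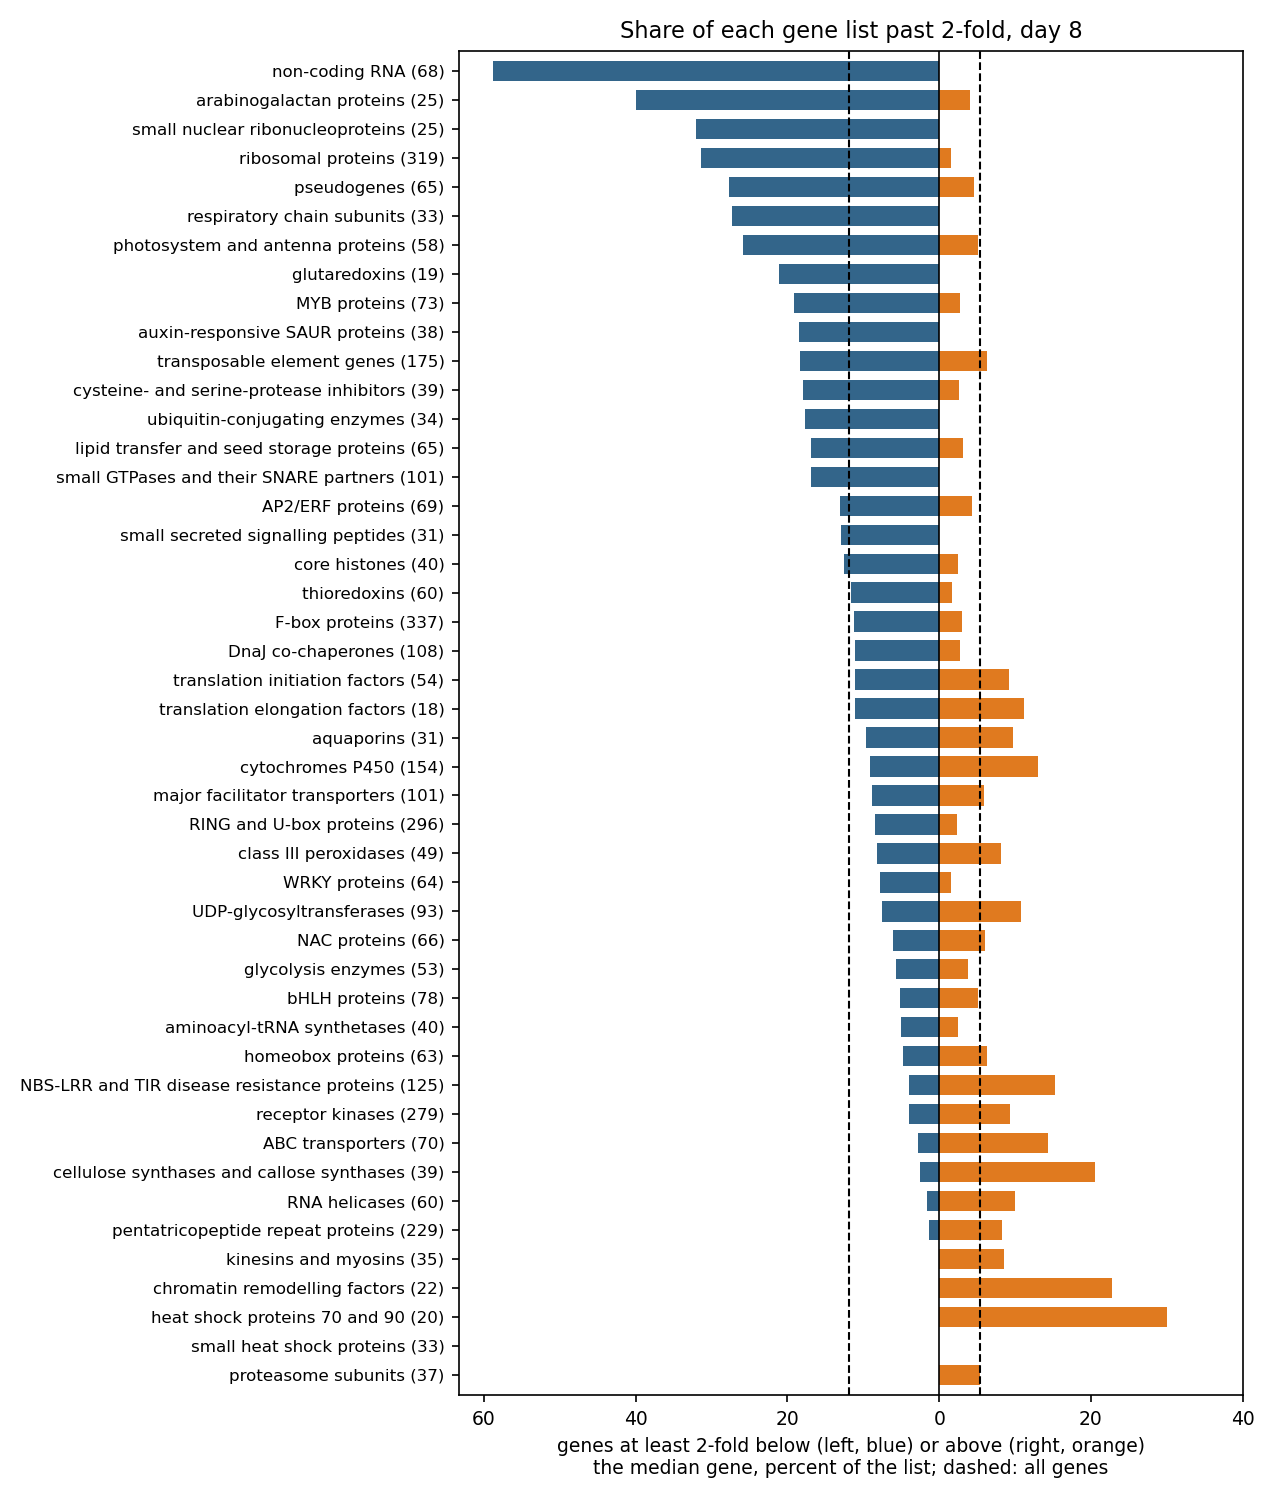
Share of each gene list (number of genes with signal in brackets; lists of at least 18) that lay at least 2-fold below (blue, to the left) or above (orange, to the right) the median gene on day 8, in percent of the list, with the shares of all genes (11.9% and 5.34%) dashed. Ribosomal proteins reach 31.3% on the low side and heat shock proteins 70 and 90 have the longest bar on the high side, while small heat shock proteins show no bar.

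Chromatin and cytoskeletal motor proteins were high as groups. Chromatin remodelling factors, ATP-driven enzymes that move or exchange nucleosomes, had a median of 40.5% over 22 of 23 genes, with 19 above the median gene. At least 2-fold above lay 5 (22.7%, against 5.34% of all genes) and at least 2-fold below 0 (against 11.9%). DRD1, which serves RNA-directed DNA methylation, was lowest at 13.1%. PIE1, which helps deposit a histone variant, stood near the middle at 38.0%, and CHR42 was highest at 79.3%. Core histones, the substrates of these enzymes, had a median of 24.7% over 40 of 43 genes, with 18 below and 22 above the median gene. The histones ranged from HTA11 at 4.92% through AT4G40030 at 24.4% to RAT5 at 84.1%, both ends being H2A genes. Kinesins and myosins, which move along microtubules and actin, had a median of 36.2% over 35 genes and a narrow spread (SD 0.39). Of these 31 lay above the median gene, from XIE at 20.9% through KAC1 at 36.2% to ATK4 at 71.9%. The 12 myosins alone had a median of 38.4%, with XIE as the single member below the median gene.

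Tubulins and actins, the tracks of these motors, were split by gene copy. The members named here were picked after their values were seen. Of the alpha-tubulins, TUA2, TUA4 and TUA6 had 5.71%, 11% and 8.45%, while TUA1, TUA3 and TUA5 had 30.8%, 31.9% and 28.1%. The beta-tubulins ran from TUB3 at 8.28% and TUB2 at 11.7% to TUB7 at 38.9%. ACT2 and ACT8, actins of vegetative tissue, had 7.06% and 6.58%, and ACT7, also vegetative, had 23.7%. ACT1, ACT3, ACT4 and ACT12, known as reproductive actins, had 46.1%, 31.4%, 104% and 63.1%. Within the actins the vegetative copies thus lay below the reproductive ones, over a range of more than 10-fold. Each copy was measured by 1 probe, and cross-hybridisation between these near-identical genes was not tested.

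Immune receptors and receptor kinases lay above the median gene. Disease resistance proteins of the NBS-LRR and TIR types, which detect pathogens inside the cell, had a median of 36.1% over 125 of 140 genes. Of these 103 lay above the median gene, 19 (15.2%, against 5.34% of all genes) at least 2-fold above and 5 (4.00%, against 11.9%) at least 2-fold below. AT5G45210 was lowest at 6.52%, AT1G63730 in the middle at 36.1% and AT1G62630 highest at 252%, the top value of the array. Among the genes with more than 1 probe, RPP5 (36.9%, SD 0.01), AT5G51630 (35.1%, SD 0.06), AT4G19510 (29.5%, SD 0.14) and RRS1 (39.9%, SD 0.19) had probes that lay close together. The probes of CW9 (21.1%, SD 1.12), RLM3 (43.3%, SD 1.09), AT5G46470 (27.4%, SD 0.74) and AT5G46490 (22.5%, SD 0.71) lay far apart. Receptor kinases, which sense peptides and other signals at the cell surface, had 31.8% over 279 of 359 genes, with 197 above the median gene. At least 2-fold above lay 26 of these kinases (9.32%, against 5.34% of all genes) and at least 2-fold below 11 (3.94%, against 11.9%). They ranged from AT1G34110 at 2.72% through AT1G67720 at 31.8% to AT1G61440, of the S-locus lectin class, at 197%. By subfamily, leucine-rich receptor-like kinases had a median of 39.3% over 18 genes, with CLV1, the receptor for a CLE peptide, in the middle at 39.0%. The S-locus lectin kinases had 34.9% over 16 genes. Glutamate receptor channels, a separate family and not receptor kinases, had 37.2% over 15. Pentatricopeptide repeat proteins, which edit and process organelle RNA, had 31.5% over 229 of 248 genes, with 180 above the median gene, from AT1G80550 at 8.99% through RARE1 at 31.5% to AT3G15930 at 113%.

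Transporter families lay on both sides of the median gene. On the low side, mitochondrial substrate carriers had a median of 17.4% with 27 of 35 below the median gene, nodulin MtN21 transporters 19.8% with 23 of 31 below, and xanthine permeases 20.7% with 6 of 8 below. ABC transporters had a median of 34.5% over 70 of 84 genes, with 53 above the median gene. At least 2-fold above it lay 10 (14.3%, against 5.34% of all genes). ABCB9 was lowest at 4.27%, ABCB25 in the middle at 34.5% and ABCB12 highest at 100%. The ABCC class was the most even, with all 12 genes above the median gene, from ABCC7 at 30.3% through ABCC12 at 37.2% to ABCC3 at 53.8%, the last from 2 probes. The ABCB class was the most spread, and ABCG transporters had a median of 30.6% over 28 genes. ATPases of the E1-E2 type, ion and lipid pumps, had 38.8% over 10 genes, from AT1G54280 at 15.5% through AT1G72700 at 38.5% to AT3G25610 at 53.3%. Proton pumps of the plasma membrane had 26.7% over 11 genes, from HA5 at 15.5% through HA2 at 26.7% to HA6 at 75.7%. PHT1 phosphate transporters had 33.5% over 8 genes, with PHT1;5 at 13.5%, PHT1;4 at 33.0% and PHT1;3 at 65.5%. Major facilitator transporters had 29.6% over 101 genes, from AT5G11570 at 7.98% through AT4G36790 at 29.6% to AT4G04760 at 71.0%.

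Aquaporins, the water channels, differed in median by class. Plasma membrane intrinsic proteins had a median of 41.9% over 11 of 13 genes, from PIP2;5 at 21.0% through PIP1;4 at 41.9% to PIP2B at 64.6%. Tonoplast intrinsic proteins had 31.1% over 9 genes, from TIP5;1 at 8.79% through GAMMA-TIP at 31.1% to TIP3;1 at 41.9%. The NOD26-like channels had 17.4% over 6 of 8 genes, from NIP7;1 at 8.45% through NIP1;2 at 15.6% to NIP2;1 at 41.3%. The 3 small basic channels had a median of 27.5%. Members of these classes overlapped in range, and for plasma membrane intrinsic proteins, as a family of the descriptions, the median relative to the median gene moved from 0.89 to 0.48 when genes without signal were kept. Enzymes of wall synthesis showed a like division. Callose synthases had a median of 40.1% over 9 genes, with GSL09 at 17.9%, GSL1 at 40.1% and GSL05 at 57.0%. Cellulose synthases had 39.1% over 10 genes, from CESA4 at 14.7% through CESA6 at 36.6% to IRX1 at 86.5%. CESA4, IRX3 (18.2%, picked after its value was seen) and IRX1 are known to act together in secondary walls, and they held both ends of the range. Cellulose synthase-like proteins had 25.4% over 20 genes, from CSLA07 at 9.79% through CSLA03 at 24.2% to CSLD3 at 54.3%.

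**Figure D5:**
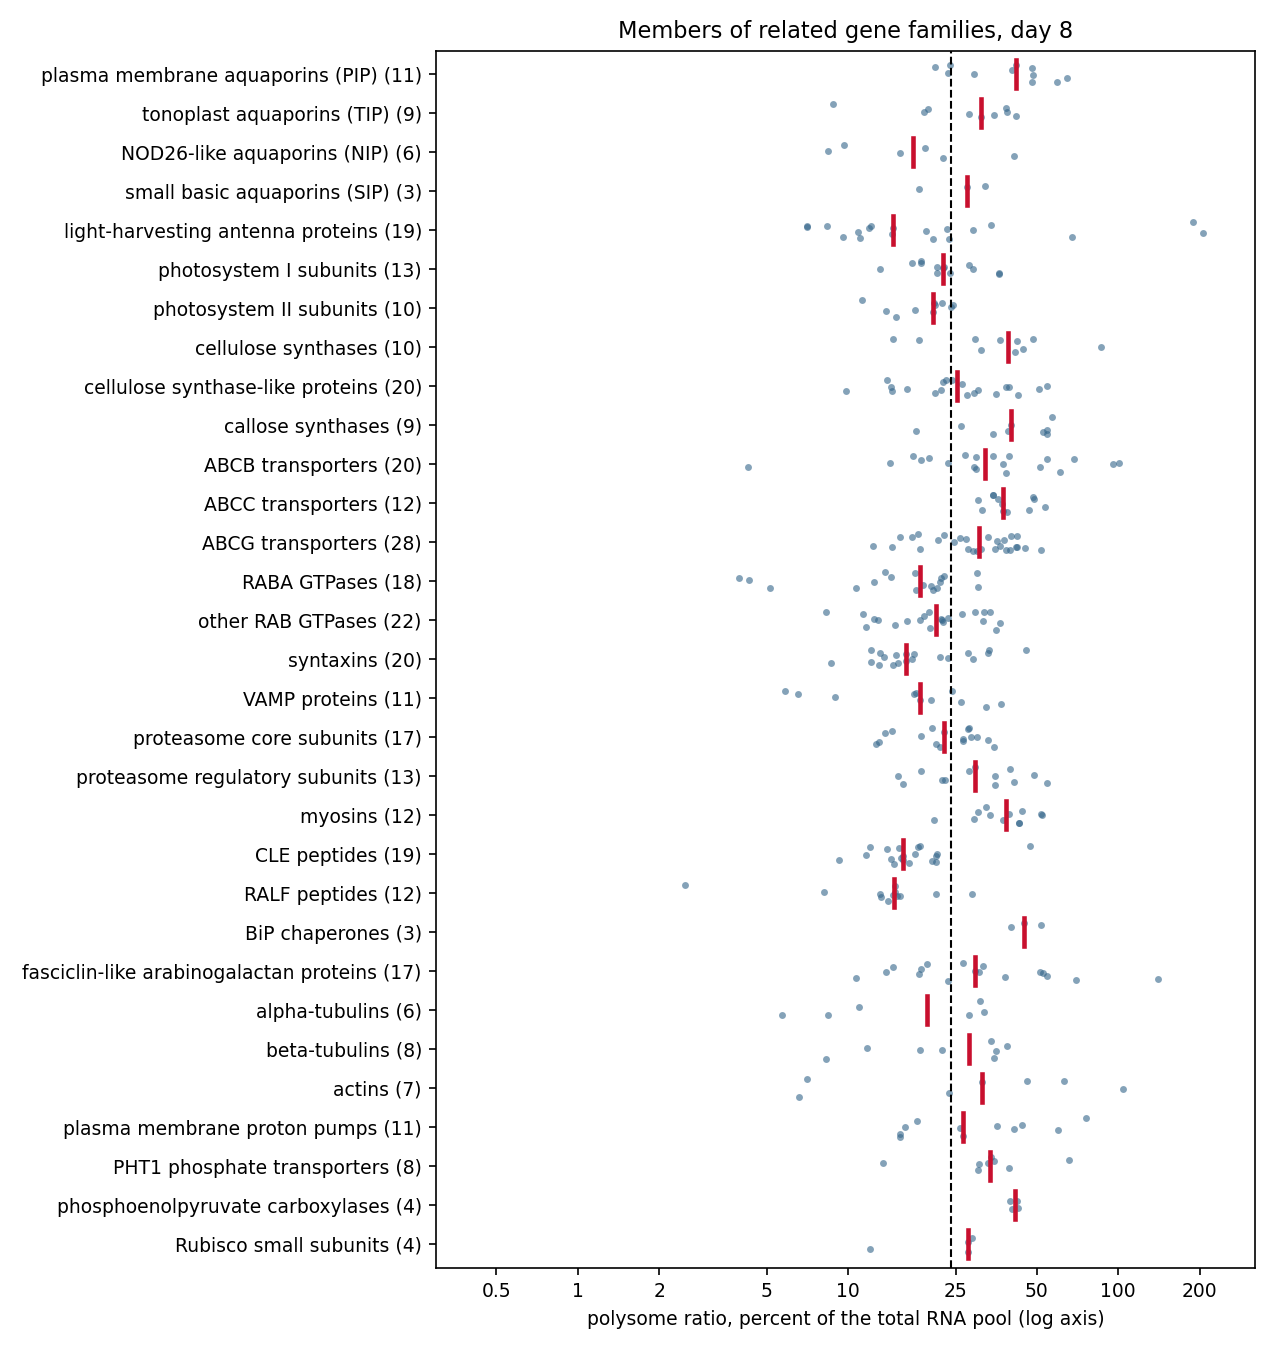
Polysome ratio of each member (dots) of related gene families on day 8, on a log axis in percent of the total RNA pool, with the family's median in red, the median gene of the array (24.1%) dashed and the number of genes with signal in brackets. Plasma membrane aquaporins (median 41.9%) lie above NOD26-like ones (17.4%), ABCC transporters all lie to the right of the dashed line, and 3 alpha-tubulins lie at 11% or lower and 3 at 28.1% or higher.

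Several enzyme and regulator families had medians above the median gene, and their spreads differed. The 4 phosphoenolpyruvate carboxylases, PPC1 to PPC4, which refill the citric acid cycle, had 42.6%, 42.2%, 39.7% and 40.6%. The SPFH proteins, scaffolds of membrane domains, lay above the median gene in 9 of 9 cases, from AT5G54100 at 26.1% through AT2G03510 at 36% to FLOT1 at 44.4%. Yellow stripe transporters of chelated metals did so in 8 of 8, from YSL4 at 27.7% through YSL6 at 33.1% to YSL1 at 45.8%. FtsH proteases, membrane-bound machines of plastids and mitochondria, had a median of 44.2% over 10 genes. FTSH6 stood apart at 6.07%, ftsh10 was in the middle at 41.7% and ftsh3 highest at 53.7%. Formins, which nucleate actin, had 43.9% over 8 genes, from AT1G42980 at 18.5% through AT1G59910 at 39.6% to FH19 at 78.3%. MCM proteins of the replicative helicase and its partners had 36% over 11 genes, with MCM10 at 9.75%, MCM4 at 36% and MCM2 at 48.0%. RNA helicases had 32.9% over 60 genes, from AT1G09995 at 9.04% through AT3G46960 at 32.1% to emb1138, a helicase of the chloroplast, at 85.5%. Enzymes of glycolysis had 29.0% over 53 genes, from TIM, the plastid triosephosphate isomerase, at 8.13% through AT1G76550 at 29.0% to AT1G56190, a phosphoglycerate kinase, at 80.9%.

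The larger transcription factor families lay near the median gene. The medians were 21.3% for 69 of 89 AP2/ERF proteins, 23.3% for 63 of 71 homeobox proteins and 23.4% for 73 of 117 MYB proteins. They were 24.2% for 78 of 119 bHLH proteins, 26.5% for 64 of 69 WRKY proteins and 26.7% for 66 of 97 NAC proteins. Probes without signal read near 25.1%, close to these medians, and an effect of weak signal was not tested. Of these families MYB proteins had the most genes far below, with 14 (19.2%, against 11.9% of all genes) at least 2-fold below. They ran from MYB99 at 2.22% through MYB68 at 23.4% to MYB88 at 55.1%, the last from 3 probes. The bHLH proteins had 4 genes past 2-fold on each side (5.13%, against 11.9% of all genes below and 5.34% above). They ran from AT2G31215 at 2.97% through AT2G22750 at 24.0% to AT4G20970 at 89.5%. Smaller families lay on both sides. K-box MADS factors had a median of 17.0% with 12 of 14 below the median gene, and growth-regulating factors had 6 of 8 below. Auxin response factors had a median of 34.6% over 12 of 18 genes and 9 above the median gene, and relative to the median gene that median moved from 0.52 to 0.14 when genes without signal were kept. ARF4 was lowest at 15.4%, ARF9 stood in the middle at 33.7%, and ARF2 (133%, probes far apart) was highest. GRAS regulators had 34.7% over 16 genes, with GAI, a repressor of gibberellin responses, lowest at 17.9%, AT4G08250 in the middle at 32.7% and AT2G45160 highest at 48.6%.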

How the data were processed

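The values are the authors' deposited log10 polysome ratios of the day 8 array, 1 value for each of 39102 features. They equalled the values of the series matrix (greatest difference 0). Per the labels' protocols, RNA was purified from gradient fractions with spike-in RNAs added, amplified from an oligo(dT) primer and labelled with Cy3 or Cy5. Background and dye corrections were unstated, and channel signals were not used here. The log10 scale was read from the spacing of 10 spike-in probes, whose medians ran from -0.929 to 0.760. No other column of per-sample values was left unmapped (0 columns).

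Features without signal shared a value that varied smoothly over the array, estimated for each feature from 30 neighbours whose log10 value was at most 0.04 from the negative controls (median -0.601). Features closer than 0.006 to this local value counted as lacking signal. This took 26.8% of 37685 gene probe features, 95.9% of 757 negative controls and 0.625% of 320 spike-in features. Just inside the limit, beyond 0.003, lay 352 gene probe features, and just outside it, in a band of the same width, lay 281. On a simulated array of 39102 features the rule recovered 100.0% of the features without signal and wrongly took 1.29% of the others. The simulated features without signal were those the rule had picked, with a spread set well inside the tolerance. Their recovery was thus fixed by the setting and does not measure the rule's error on the real array.

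Of 37478 distinct gene probes, 25920 were named by locus, 253 by accession and 31 by symbol. The 256 that named several loci and 11018 without a locus were not used for genes. Of 25416 loci, 25342 matched RefSeq's table (assembly TAIR10.1), from which symbols and gene types come. Coordinates are not printed, as no build is named for the array. Probes of a gene were averaged, and values converted to log2. Computations used Python 3.11.15 with pandas 2.3.3 and numpy 2.4.6. Having 1 array limits the precision.

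Families are phrases of the file's descriptions with at least 8 genes with signal, leaving out 38 broad phrases. Lists were matched to descriptions, and subfamilies to gene names. The members and lists were chosen with earlier results of these data known. Genes named are the 12 lowest and 12 highest with a symbol, and in each family the lowest, middle and highest member and those with several probes where listed; others are said to be chosen after their values were seen. With 1 array there was no test, only counts and medians beside those of all genes. A planned description by protein length was not run, because no protein sequences were used here.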

Additional observations from a re-analysis of the deposited data

Results flagged for a closer look

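Probes that carry no gene name were not used in the comparisons. Of 9323 such probes 4421 (47.4%) had signal, against 31 (4.10%) of the negative controls, and this signal in unused data is what marked them out. Their median was 22.9%, close to the median gene. At least 2-fold below the median gene lay 706 of them (16.0%, against 11.9% of named genes) and at least 2-fold above it 545 (12.3%, against 5.34%). What these probes measure was not analysed here.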

How the results depend on the processing

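The deposited values of both sources were identical, the median instead of the mean of probes changed the counts past 2-fold by at most 2 genes, and a tolerance that is 2 times as wide kept all 67 family and list medians that were recomputed close to the reported ones. The median gene was at 30.4% with zero at the median spike-in probe instead of 24.1%, which leaves differences relative to it as they are. With 1.5-fold as the limit 4837 genes lay below and 4097 above, and with 4-fold 392 and 48. Over only the 600 genes with at least 2 probes, 90 lay at least 2-fold below and 43 above (15.0% and 7.17%), 0 families of 8 genes were left, and 7 lists were past 0.5. There the median of cytosolic ribosomal proteins turned from -0.61 to 0.0731, over 3 genes. With every feature kept, including those without signal, 43 families in place of 74 and 11 lists in place of 17 lay at least 0.5 from the median gene, since members without signal lie near it. So moved the medians of SAUR proteins (-0.56 to -0.02), RALF peptides (-0.70 to -0.01), CLE and RALF together (-0.64 to -0.25), the arabinogalactan family (-0.78 to -0.38), auxin response factors (0.52 to 0.14), plasma membrane intrinsic proteins (0.89 to 0.48) and pseudogenes (-0.53 to -0.02). SAUR proteins were also at -0.09 when 1 no-signal value was used for the whole array. With at least 5 genes a family, 164 families passed that limit. Leaving out genes above 100% gave 73 families and 16 lists. The alternatives on protein length and on RefSeq product names were not run, since no such table was used here. No paired analysis was possible because there is 1 array. There were no replicates to leave out.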
